A study of Mus musculus with 6 samples.

Results

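The cytosolic ribosomal protein genes were taken by symbol as the rows named Rpl or Rps followed by a number, with at most 1 further letter and 1 further digit, together with Rplp0, Rplp1, Rplp2 and Rpsa. The rule found 83 genes among the 32285 of the count matrices. By subunit, 31 belong to the core of the small (40S) subunit, 43 to the core of the large (60S) subunit, 3 form the P stalk of the large subunit, and 6 are paralogs of core genes (Rps27l, Rpl22l1, Rpl3l, Rpl7l1, Rpl10l and Rpl39l).

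A ribosome holds 1 copy of nearly every core protein, so cells make these proteins in similar molar amounts, and their mRNAs are among the most abundant of dividing cells. Most of these mRNAs begin with a C followed by a run of pyrimidines (the 5′ terminal oligopyrimidine, or TOP, motif), through which mTOR signalling controls their translation. Ribosome production is known to be high in the crypt, where stem cells and transit-amplifying (TA) cells divide, and to fall as cells differentiate.

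Epithelial cells from mouse ileal crypts, sorted on the surface marker EpCAM, were profiled in 6 droplet single-cell RNA-seq libraries. Of these, 3 came from Fpr2f/f mice, which carry floxed Fpr2 alleles without Cre and bear the label WT, and 3 from Fpr2VKO mice, in which Cre under the Villin promoter removes Fpr2 from the intestinal epithelium. Fpr2 encodes formyl peptide receptor 2, a G protein-coupled receptor. The floxed mice were on the C57BL/6J background and no treatment is given. The labels do not say which mouse each library came from, so p-values measure the spread between these libraries. Fpr2 had 0 UMIs (unique molecular identifiers, each standing for 1 captured RNA molecule) in all 6 libraries, so the knockout could not be checked from the counts. The comparison asked whether loss of Fpr2 changed the ribosomal protein mRNAs of each epithelial cell type.

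The libraries held 90142126 to 189516114 UMIs over all barcodes. Barcodes with at least 1000 UMIs, at least 500 genes and at most 20% of UMIs from mitochondrial genes were kept, which left 1868 to 4722 barcodes a library, 17104 in all. The mitochondrial limit removed 65.7% to 90.1% of the barcodes past the other limits. A barcode kept in 2 or more libraries occurred 123 times, with 0 to 23 shared by a pair of libraries. Clustering without the ribosomal protein genes gave 25 clusters. From marker lists, 1073 cells were called stem-like, 2143 TA-like, 948 enterocyte-like, 913 Paneth-like, 1712 goblet-like, 408 enteroendocrine-like and 324 tuft-like, while 9255 cells of 11 clusters stayed unnamed and 328 immune cells were left out. Over all epithelial cells the summed level of the 8 stem cell markers was 944 to 1287 CPM (counts scaled to a common library total) in Fpr2f/f and 2127 to 2329 in Fpr2VKO libraries, and within stem-like cells 3126 to 4630 and 6488 to 7259, whereas over all epithelial cells the 8 enterocyte markers summed to 1499 to 1793 and 2037 to 2950 CPM and the 7 immune markers summed to 4.17 to 8.54 and 3.01 to 8.94 CPM. Stem-like cells numbered 183 of 2610, 121 of 4665 and 160 of 2780 epithelial cells in Fpr2f/f. In Fpr2VKO they numbered 199 of 2173, 255 of 2705 and 155 of 1843. The part of these differences in cell number and marker level in results over all epithelial cells was not tested. Summed UMIs alone cannot tell fewer cells of a type from less RNA a cell.

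The starts of 5 members that return below are shown because they carry the feature the family is known for. Each window runs from 15 bases before the RefSeq transcription start to 15 bases from it (GRCm38.p6, RefSeq), 5′ to 3′ on the gene's strand, and capitals mark the C at the start with the unbroken run of C and T behind it.
Rpl35, chr2:39005117-39005146, minus strand: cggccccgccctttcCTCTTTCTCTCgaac
Rpl38, chr11:114668565-114668594, plus strand: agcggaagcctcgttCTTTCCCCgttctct
Rpl15, chr14:18270972-18271001, minus strand: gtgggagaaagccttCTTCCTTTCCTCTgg
Rps6, chr4:86857353-86857382, minus strand: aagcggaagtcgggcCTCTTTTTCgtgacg
Rps27, chr3:90213634-90213663, minus strand: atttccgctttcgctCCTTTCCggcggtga
The runs were 7 to 13 bases long. A promoter entry was given for 63 of the 83 members, and 12 of these (19.0%) had a C followed by at least 4 pyrimidines exactly at the annotated start, against 2.49% of all 27025 genes with an entry. Allowing the run to begin up to 10 bases to either side raised the shares to 57.1% of members and 30.8% of all genes. Annotated starts can lie some bases from the true ones, and the search read 1 strand only.

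Ribosomal protein mRNAs made up between 2.14% and 20.2% of the UMIs of a class in a library, and the classes kept nearly the same order in every library. Among the named classes the share was highest in stem-like cells, at 15.97% to 20.2% with a mean of 17.7% ± 1.52 (SD, n = 6 libraries). TA-like cells, the dividing daughters of stem cells, followed at 14.6% to 17.9%. Stem-like cells were above TA-like cells in 6 of 6 libraries, by 0.819 to 2.71 percentage points, and TA-like cells were above enterocyte-like cells in 6 of 6, by 2.80 to 4.89 points. One unnamed cluster of 781 cells lay above stem-like cells in 6 of 6 libraries, at 17.2% to 20.4%, with a median of 2471 UMIs a cell. These orders are descriptions, with no test, because cells were grouped on the same libraries.

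Among the differentiated classes, enterocyte-like cells held 11.5% to 14.0%, tuft-like cells 10.5% to 13.8% and goblet-like cells 11.4% to 12.3%. Enterocyte-like cells exceeded goblet-like cells in 6 of 6 libraries by as little as 0.185 points, while tuft-like cells were above goblet-like cells in only 2 of 6. Enteroendocrine-like cells, which make hormones, held 7.03% to 8.95% and lay below goblet-like cells in 6 of 6 libraries. Paneth-like cells, the makers of antimicrobial peptides at the crypt base, had the lowest share of a class, 2.14% to 2.50%, and the share in stem-like cells was 6.65 to 9.26 times as high. Of the 2 Paneth-like clusters, the deeper one, with 588 cells, held 1.90% to 2.19% and the shallower one, with 325 cells, 5.82% to 8.45%. One small enterocyte-like cluster of 56 cells was as low, at 1.52% to 2.98% with 3 to 25 cells a library. The unnamed cells spanned 12.3% to 14.1% as a whole, and their 11 clusters 7.25% to 20.4%. Some of these clusters carried enterocyte genes, so the enterocyte-like values do not cover all such cells. A cluster of 1942 cells that scored best on the enterocyte markers held 8.26% to 10.3%, at a median of 2583 UMIs a cell. Of 2 clusters led by Fabp6, one of 1246 cells held 7.25% to 8.99% and one of 422 cells 11.5% to 14.7%.

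**Figure D1:**
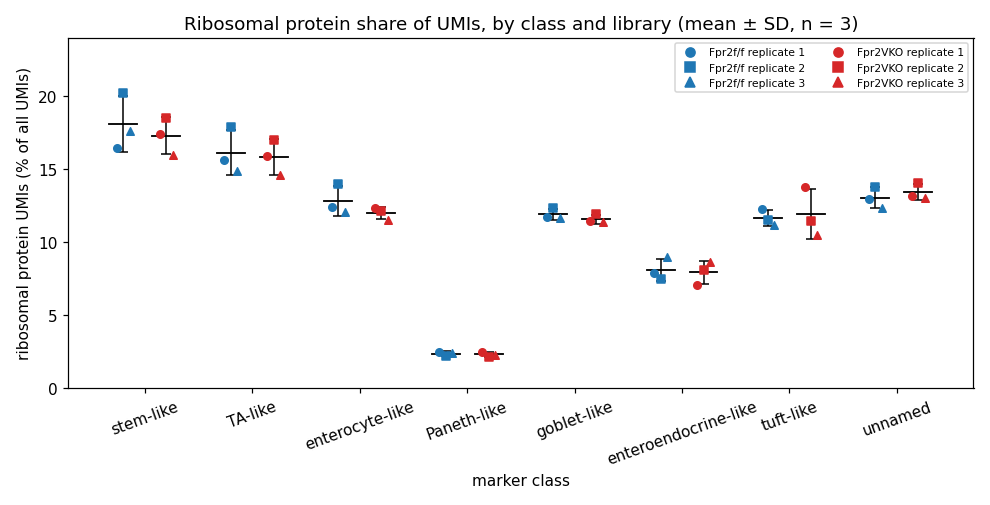
Share of UMIs from the 83 ribosomal protein genes (vertical axis, percent of all UMIs) in each marker class, with 1 point a library, blue for Fpr2f/f and red for Fpr2VKO, and black lines for the mean ± SD of 3 libraries. Stem-like cells sit at 15.97% to 20.2% and Paneth-like cells at 2.14% to 2.50%, and blue and red points overlap in every class.

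A share depends on what else a cell makes. The 50 most abundant other nuclear genes of Paneth-like cells, led by Defa24 and other defensins, took 77.8% to 83.2% of their UMIs. The 50 most abundant of stem-like cells, a different set led by Eef1a1 and Ptma, took 9.49% to 10.3% of theirs. With the 50 genes of each class itself and the mitochondrial genes left out of the denominator, the share rose to 13.3% to 15.3% in Paneth-like and 20.8% to 25.5% in stem-like cells. The lowest values were then those of enteroendocrine-like cells, at 9.13% to 11.4%. In UMIs a cell, the median Paneth-like cell held 330 to 962 ribosomal protein UMIs and the median stem-like cell 4273 to 7177. Depth moved with class, since median UMIs a cell were 1757 to 3435 in tuft-like and 23144 to 37251 in stem-like libraries, and its part in the order of classes was not tested. Barcodes with fewer than 100 UMIs, which hold mostly free RNA, had a share of 6.82% to 8.23%, so the Paneth-like value lay below that of free RNA.

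Between genotypes, the groups of 3 libraries overlapped in their ribosomal protein share in every class. Over all epithelial cells the share was 13.2%, 12.6% and 11.9% in Fpr2f/f and, with Fpr2 deleted, 12.8%, 12.4% and 11.3%. The values interleaved, and the means of 12.6% ± 0.688 and 12.2% ± 0.760 (SD, n = 3) differed by -0.402 percentage points (exact two-sided permutation test, p = 0.6). In stem-like cells the share was 16.5%, 20.2% and 17.6% in Fpr2f/f and 17.4%, 18.5% and 15.97% with Fpr2 deleted, a difference of -0.804 points (exact permutation p = 0.6). The lowest and the highest library thus fell into opposite groups, with all others between them. In TA-like cells the difference was -0.308 points (exact permutation p = 0.8). Enterocyte-like cells gave 12.8% ± 1.02 and 12.01% ± 0.418 (SD, n = 3), a difference of -0.809 points (exact permutation p = 0.3). In the other classes the difference ranged from -0.334 points in goblet-like to 0.404 points in unnamed cells. All 8 adjusted p-values were 0.9 by the exact permutation test with Benjamini-Hochberg adjustment, and 3 libraries against 3 cannot give a p below 0.1. Set against the library of the same number, the share was lower in Fpr2VKO in 3 of 3 over all epithelial cells (differences of -0.457, -0.201 and -0.546 points), in goblet-like cells (-0.276, -0.414 and -0.314) and in enterocyte-like cells (-0.035, -1.86 and -0.531), and higher in 3 of 3 in unnamed cells (0.236, 0.305 and 0.670). Whether the numbers pair the libraries is not given in the labels, and these pairs were not tested. Over all epithelial cells the difference depended on which barcodes were counted and how. With a mitochondrial limit of 10% the share was 12.4%, 11.2% and 9.48% in Fpr2f/f and 9.05%, 8.25% and 6.52% in Fpr2VKO, which did not overlap (difference -3.08 points, exact permutation p = 0.1). At that limit Paneth-like cells, with a share of 1.96% to 2.33%, held 1439397 of 9427841, 8730048 of 25866343 and 4417038 of 12269051 UMIs in Fpr2f/f. In Fpr2VKO they held 4363609 of 10404746, 7840881 of 15922325 and 5397872 of 8888573. The part of this in the difference was not tested. At the main limit of 20% the median share of a barcode was higher in Fpr2VKO, at 11.9%, 11.5% and 11.2% in Fpr2f/f and 12.3%, 12.98% and 12.3% in Fpr2VKO, again without overlap (exact permutation p = 0.1). Mitochondrial UMIs, which enter the denominator, took a higher mean share in Fpr2VKO in all 8 classes, for example 11.7% ± 1.07 in Fpr2f/f and 13.5% ± 0.608 in Fpr2VKO stem-like cells (SD, n = 3, exact permutation p = 0.1).

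Within the family, most members were captured in similar amounts and a few stood apart. Summed over all epithelial cells, Rps12, a small subunit protein, had the most UMIs (757513), and among the next highest were Rpl13 (647285), Rps20 (604006) and Rplp1 of the P stalk (582160). At the other end, Rpl10l had 0 UMIs, Rpl39l had 7, Rpl3l had 222, Rpl7l1 had 8765 and Rpl15 had 48545, so the lowest core gene was Rpl15, a protein of the large subunit. The mean level was 3388 CPM for Rps12, 2613 CPM for Rplp1 and 213 CPM for Rpl15. Rpl10l, Rpl39l and Rpl3l replace their core partners mainly in germ cells or striated muscle, and they were at or near 0 here. Within the P stalk, which recruits elongation factors, the mean level was 1757 CPM for Rplp0 and 1735 CPM for Rplp2.

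Ribosomal protein genes have many processed copies in the genome. Of the 83 members, 80 had at least one stretch of 60 bases in their principal transcript that was repeated exactly in an annotated transcript of another gene, and in 37 members over 50% of such stretches were repeated. Rpl15 shared 67.5% of them with transcripts of 19 other genes, Rpl36 76.2% with 7, and Rpl35 38.3% with 7. How the counting software placed reads that fit several copies is not given in the sources used here, so levels compared between members carry this doubt, and its part in the differences between genotypes was not tested. Rpl35 (chr2:39001580-39005624, minus strand, 4 exons, GENCODE M21) also overlaps the genes Wdr38 and Arpc5l.

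Across classes the members rose and fell together. In 48 points (8 classes in 6 libraries, which share their depth), the log2 CPM of a member followed the summed members with a Pearson r of up to 0.998 for Rpl10a, followed by Rpl24 (0.996) and Rplp2 (0.996). The least alike were Rps27l (0.682), Rpl10 (0.848) and Rpl35 (0.850). The SD over classes of the mean log2 CPM was among the largest for Rpl22 (1.06), Rps19 (1.06), Rpl7 (1.049) and Rpl6 (1.049), and smallest for Rps27l (0.597), Rpl41 (0.717), Rpl10 (0.753), Rps14 (0.804) and Rpl9 (0.839). Paneth-like cells, where the family as a whole was lowest, enter all of these SDs and r values. Each member is also part of the sum it was set against, and no other genes were set beside the members.

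To take out the level shared by the family, each member was set against the median member of its class, a scale chosen after the values were seen. On this scale Rps27l, a paralog of the small subunit protein Rps27 that p53 is known to induce, departed most. Its relative level in Paneth-like cells was 1.41 log2 units above its own mean over classes, and in tuft-like cells 0.871 below it (-0.871). In mean log2 CPM, not set against the median member, Rps27l was lowest in Paneth-like cells (8.72), with 8.79 in tuft-like and 10.2 in stem-like cells. Rpl35, Rpl36 and Rpl37a were relatively high in tuft-like cells, at 0.881, 0.701 and 0.773, and low in stem-like cells, at -0.338, -0.515 and -0.422. Rpl5, which with Rpl11 and the 5S RNA binds the p53 regulator Mdm2, showed the reverse, at -0.831 in tuft-like and 0.174 in stem-like cells. Rpl10, a late-joining protein of the large subunit, was relatively high in Paneth-like cells (0.569) and low in tuft-like cells (-0.764). Least variable were Rpl11, Rpl27 and Rpl13a, with SDs over classes of 0.0411, 0.0414 and 0.0419. Over the 80 members with at least 20 CPM, the relative level in tuft-like cells correlated with the GC content of the principal transcript (r = 0.529), as it did in unnamed cells (r = 0.574), and in stem-like cells inversely (r = -0.500). These are descriptions across genes, which are not independent replicates.

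**Figure D2:**
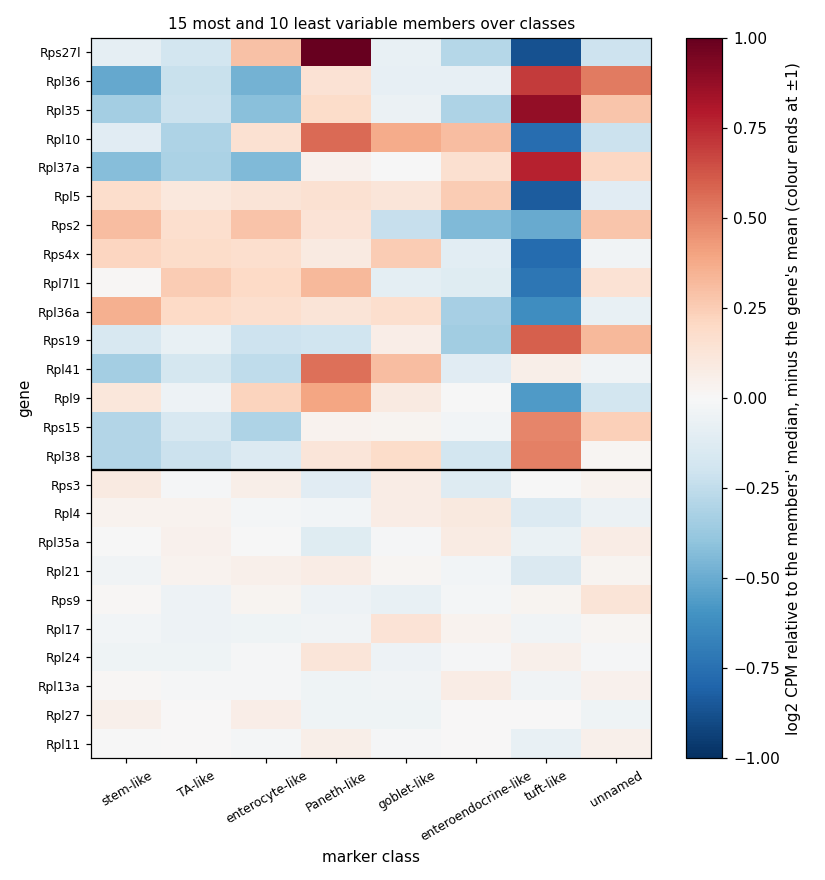
Heat map of the 15 most (above the line) and 10 least variable members over the 8 marker classes, in log2 CPM relative to the median member of the class and centred on the gene's own mean. Rps27l in Paneth-like cells lies at 1.41, past the end of the colour scale, and Rpl35, Rpl37a and Rpl36 are highest in tuft-like cells.

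The pairs of core gene and paralog showed this directly. For each Rps27 UMI, Paneth-like cells held 2.06, 1.91 and 1.44 Rps27l UMIs in Fpr2f/f and 2.59, 2.23 and 2.18 in Fpr2VKO. Every other class was at or below 1.09 in every library. Stem-like cells ranged from 0.570 to 0.933, goblet-like cells from 0.445 to 0.694 and tuft-like cells from 0.159 to 0.528, while free RNA stood at 0.519 to 0.736. Between genotypes the ratio over all epithelial cells was 0.694 ± 0.149 in Fpr2f/f and 0.875 ± 0.0347 in Fpr2VKO (SD, n = 3), and the groups overlapped. In Paneth-like cells, where the deeper cluster held more of the Fpr2VKO cells, the ratios given above did not overlap, and in free RNA the Fpr2VKO ratios were likewise all higher; neither was tested. The count of Rps27l itself did not pass the test in any comparison (log2 fold change 0.10 ± 0.147 SE over all epithelial cells, edgeR adjusted p = 0.853).

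Rpl22l1 against Rpl22, a pair in which the paralog is known to rise when Rpl22 is lost, varied less. The ratio was highest in goblet-like cells, at 0.760 to 1.04, and lowest in tuft-like cells, at 0.369 to 0.624. Stem-like cells lay at 0.595 to 0.774, and free RNA at 0.378 to 0.490. In Fpr2VKO the ratio over all epithelial cells was 0.711 ± 0.0429 and in Fpr2f/f 0.673 ± 0.113 (SD, n = 3), with overlapping groups. Rpl7l1, a nucleolar relative of Rpl7, stood at a mean of 39.9 CPM, with a log2 fold change of 0.01 ± 0.117 SE (edgeR adjusted p = 0.990).

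**Figure D3:**
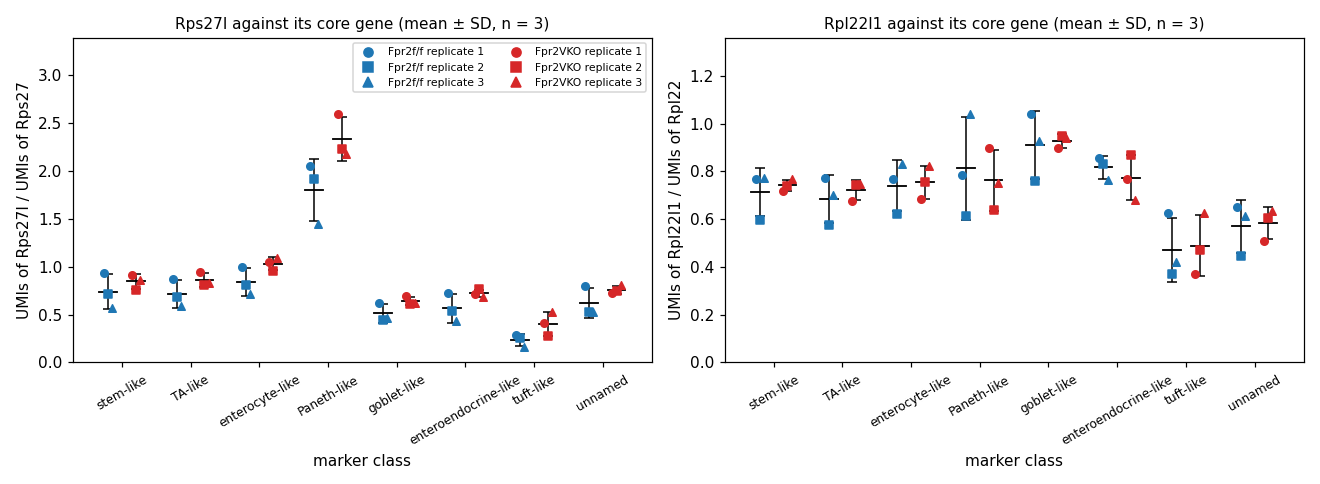
UMIs of Rps27l over UMIs of Rps27 (left) and of Rpl22l1 over Rpl22 (right) in each marker class, with 1 point a library, blue for Fpr2f/f and red for Fpr2VKO, and lines for the mean ± SD of 3 libraries. Paneth-like cells lie at 1.44 to 2.59 Rps27l UMIs for each Rps27 UMI, above all other classes.

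Gene by gene, Rpl35 was the only member that passed the main edgeR test, lower in Fpr2VKO in 2 classes. The main test used all 6 libraries and a filter on low counts, without the replicate block, and other settings called further members. The medians of the members by class are given as descriptions, and the difference between classes was not tested. Over all epithelial cells 81 members could be tested, since Rpl10l and Rpl39l had too few counts. Their median log2 fold change (Fpr2VKO over Fpr2f/f) was 0.03, with 46 members above 0 and 35 below, beside a median of -0.01 over all 16631 genes tested. The range was lopsided, from -0.66 for Rpl35 to 0.24 for Rpl7. In enterocyte-like cells 64 of 80 members had a negative log2 fold change, with a median of -0.08, and in goblet-like cells 61 of 80, with a median of -0.07. The medians of all genes tested there were -0.0027 and 0.00054. Stem-like cells had 49 of 80 negative members (median -0.04), Paneth-like cells 48 of 80 (-0.04) and unnamed cells 29 of 81 (0.06), while TA-like, enteroendocrine-like and tuft-like cells had medians between -0.01 and 0.00. These medians are small beside what 1 library moves. Leaving out each library in turn gave -0.02 to 0.10 over all epithelial cells, -0.11 to 0.05 in stem-like, -0.07 to 0.10 in TA-like, -0.08 to 0.03 in Paneth-like, -0.09 to 0.06 in enteroendocrine-like, -0.16 to 0.12 in tuft-like and -0.01 to 0.12 in unnamed cells. The sign held in goblet-like cells (-0.11 to -0.03) and in enterocyte-like cells, where the median ran from -0.14 to -0.0057.

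**Figure D4:**
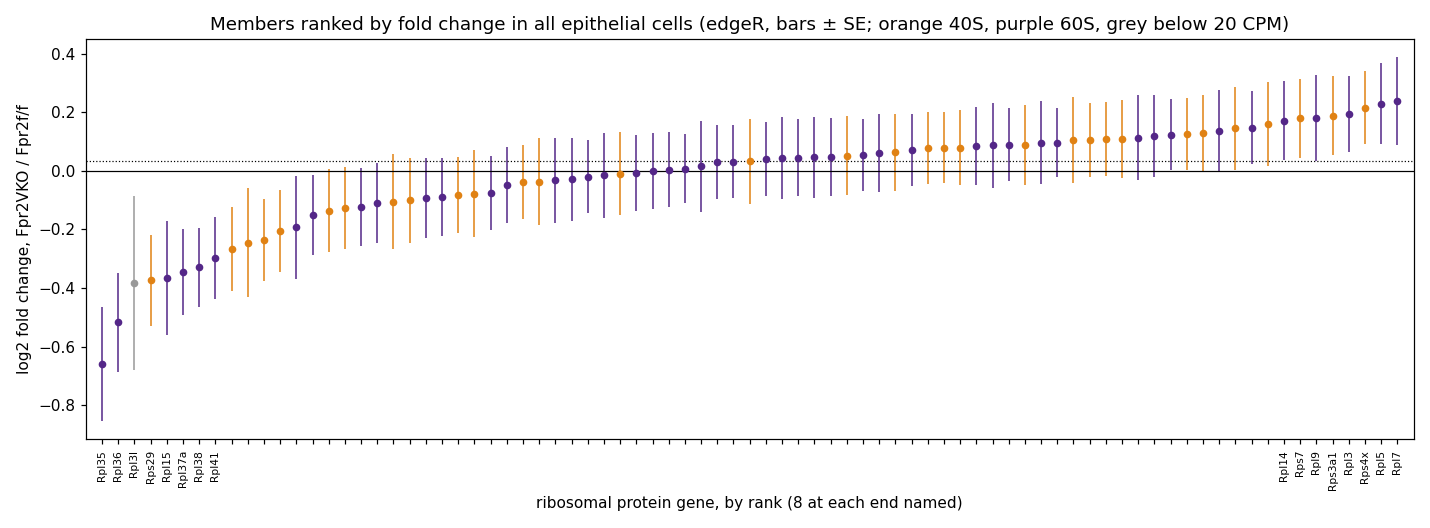
The 81 members tested over all epithelial cells, ranked by log2 fold change of Fpr2VKO over Fpr2f/f (vertical axis; the 8 genes at each end are named, and points have bars of ± SE from edgeR, orange for small subunit and purple for large subunit genes, grey for the member under 20 CPM, and a dotted line at the members' median of 0.03). The lower end falls away to -0.66 for Rpl35 and -0.52 for Rpl36, while the upper end reaches 0.24.

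Rpl35, a protein at the exit tunnel of the large subunit, had normalised levels of 518, 859 and 573 CPM in Fpr2f/f and 439, 460 and 336 CPM in Fpr2VKO when all epithelial cells were summed. All Fpr2VKO values lay below all Fpr2f/f values, but the test over all genes did not call the difference (log2 fold change -0.66 ± 0.194 SE, edgeR adjusted p = 0.378). Without Fpr2f/f replicate 2, the highest library, the log2 fold change was -0.40 (edgeR adjusted p = 0.719). In goblet-like cells the groups were 525, 707 and 600 CPM against 382, 393 and 325 CPM. There Rpl35 fell by 0.74 on the log2 scale (SE 0.123, edgeR adjusted p = 0.00397). Paneth-like cells gave 115, 163 and 130 CPM against 99.96, 101 and 76.97 CPM, and Rpl35 fell by 0.57 (SE 0.139, edgeR adjusted p = 0.0337). Its groups did not overlap in 6 of 8 classes, and its log2 fold change lay between -0.74 and -0.49 in all 8, although the classes share the same 6 libraries and their free RNA. The free RNA moved the same way, at 329, 497 and 381 CPM of Rpl35 in Fpr2f/f and 275, 293 and 293 CPM in Fpr2VKO.

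Cell make-up differed inside both classes in which Rpl35 was called, and median depth without overlap in Paneth-like cells only. The deeper goblet-like cluster held 31.8% to 34.8% of goblet-like cells in Fpr2f/f and 42.8% to 52.3% in Fpr2VKO, and the deeper Paneth-like cluster 45.0% to 61.8% and 67.7% to 89.3%. Median UMIs of Paneth-like cells were 6964 to 13827 in Fpr2f/f and 24418 to 51365 in Fpr2VKO. In goblet-like cells they were 2565 to 6171 and 5392 to 6395, with overlap. The 8 Paneth markers summed to 15145 to 62928 CPM in Fpr2f/f and 17569 to 26033 CPM in Fpr2VKO goblet-like cells, with overlap, and the 7 immune markers to 3.79 to 7.67 and 1.42 to 10.2 CPM. Other lists separated the genotypes. In goblet-like cells the enterocyte markers summed to 781 to 1155 CPM in Fpr2f/f and 1292 to 1366 in Fpr2VKO, and the 8 TA markers to 279 to 322 and 340 to 364. In Paneth-like cells the 7 goblet markers summed to 15840 to 18355 and 12801 to 14337 CPM, the stem cell markers to 140 to 205 and 211 to 338, and the 8 tuft markers to 4.52 to 7.33 and 4.01 to 4.32. The part of these in the Rpl35 calls was not tested. Restricted to barcodes with at least 10000 UMIs, Rpl35 lost the call in both classes (log2 fold change -0.62 in goblet-like and -0.54 in Paneth-like cells, edgeR adjusted p = 0.0934 and 0.140). Without Fpr2VKO replicate 3 the adjusted p-value in goblet-like cells was 0.126, and in Paneth-like cells the call was lost without any of Fpr2f/f replicates 2 and 3 and Fpr2VKO replicates 1 and 3 (edgeR adjusted p = 0.405, 0.0792, 0.104 and 0.343).

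Other members had lower values in Fpr2VKO that did not pass the main edgeR test over all genes. Rpl36, likewise of the large subunit, stood at 857, 1093 and 1180 CPM in Fpr2f/f and 730, 673 and 769 CPM in Fpr2VKO goblet-like cells. These groups did not overlap, and the log2 fold change was -0.53 ± 0.121 SE (edgeR adjusted p = 0.123). Rps29, a small zinc-binding protein of the 40S subunit, had 1798, 2376 and 2603 CPM against 1392, 1739 and 1676 CPM in the same cells. Here too every Fpr2VKO library was lower (log2 fold change -0.50 ± 0.130 SE, edgeR adjusted p = 0.192). Rpl38, known from mice whose Hox mRNAs are translated poorly when it is reduced, had 1074, 1310 and 1424 CPM against 832, 962 and 987 CPM (log2 fold change -0.45 ± 0.120 SE, edgeR adjusted p = 0.192). Rpl37a, a zinc-binding protein of the 60S subunit, had a log2 fold change of -0.40 ± 0.117 SE in goblet-like cells (edgeR adjusted p = 0.270) and -0.34 ± 0.147 SE over all epithelial cells (edgeR adjusted p = 0.521), the latter -0.21 without Fpr2f/f replicate 2. Rpl15 gave 373, 492 and 330 CPM in Fpr2f/f and 317, 307 and 204 CPM in Fpr2VKO stem-like cells, which did not overlap, with a log2 fold change of -0.53 ± 0.177 SE (edgeR adjusted p = 0.407). In the other 7 classes the Rpl15 groups overlapped. With the replicate number as a block, edgeR called Rpl36 (adjusted p = 0.0124), Rps29 (0.0124) and Rpl38 (0.0275) in goblet-like cells and Rpl15 (0.00452) in stem-like cells, but not Rpl37a. Without a filter on low counts, edgeR without the block called Rpl36 (adjusted p = 0.00762), Rps29 (0.0189) and Rpl38 (0.0458) in goblet-like cells. At that setting it also called Rpl15 (0.0158) in stem-like cells. Leaving out Fpr2f/f replicate 1 likewise brought calls of Rpl36, Rps29 and Rpl38 in goblet-like cells.

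**Figure D5:**
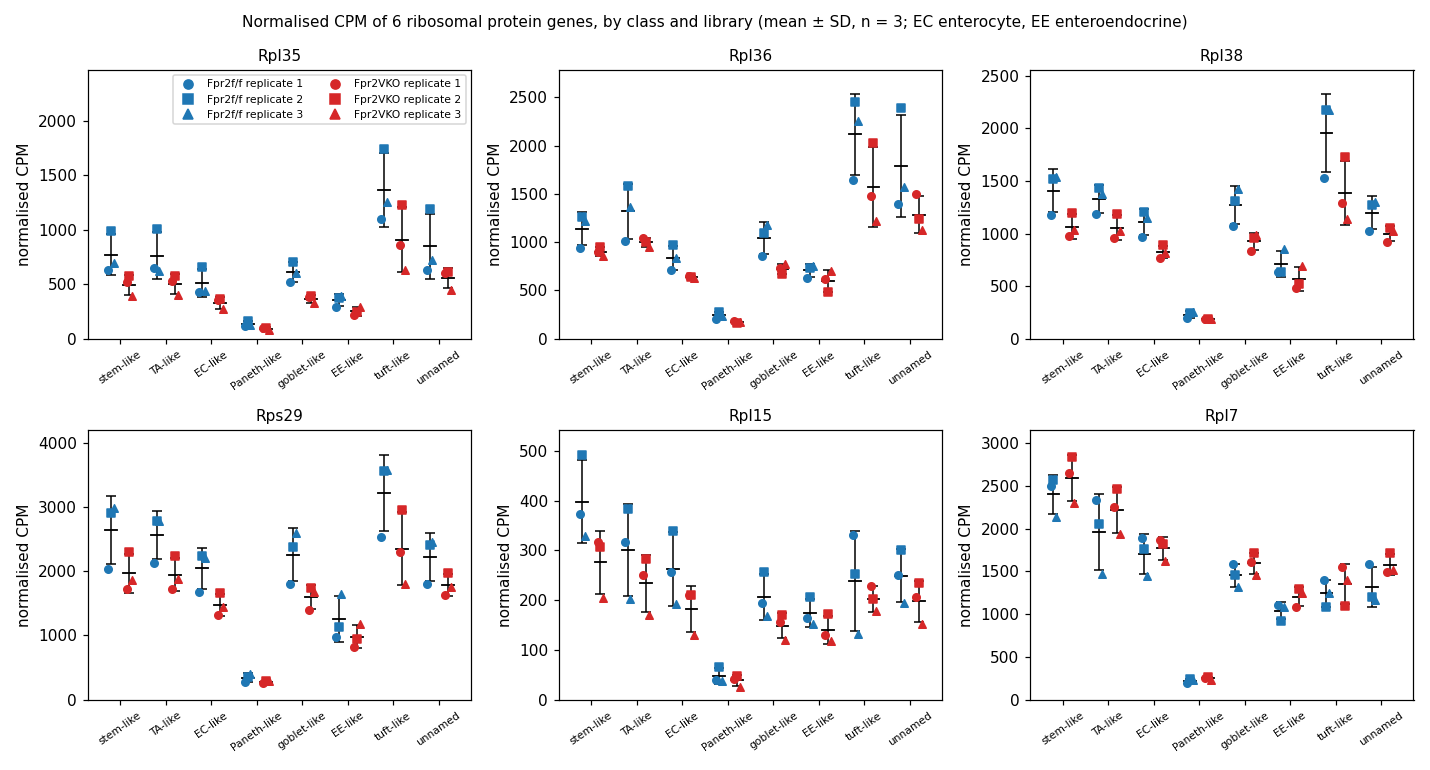
Normalised CPM (vertical axes, scaled within each class) of Rpl35, Rpl36, Rpl38, Rps29, Rpl15 and Rpl7 by marker class, with 1 point a library, blue for Fpr2f/f and red for Fpr2VKO, and lines for the mean ± SD of 3 libraries. In goblet-like cells all red points of Rpl35 (325 to 393 CPM) lie below all blue points (525 to 707 CPM), while those of Rpl7 overlap.

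At the upper end, Rpl7 had 1717, 1349 and 1239 CPM in Fpr2f/f and 1690, 1855 and 1529 CPM in Fpr2VKO over all epithelial cells. The groups overlapped (log2 fold change 0.24 ± 0.151 SE, edgeR adjusted p = 0.670). Rpl5 followed at 0.23 ± 0.138 SE (edgeR adjusted p = 0.657), Rps4x, the X-linked small subunit protein, at 0.22 ± 0.125 SE (edgeR adjusted p = 0.649), Rpl3 of the peptidyl transferase centre at 0.19 ± 0.130 SE (edgeR adjusted p = 0.692) and Rps3a1 at 0.19 ± 0.135 SE (edgeR adjusted p = 0.716). Leaving out 1 library moved these values, to between 0.15 (without Fpr2f/f replicate 3) and 0.39 (without Fpr2f/f replicate 1) for Rpl7. The range was 0.17 to 0.36 for Rpl5, the upper end without Fpr2f/f replicate 1, and 0.19 to 0.28 for Rps4x. It was 0.12 (without Fpr2VKO replicate 1) to 0.27 for Rpl3 and 0.12 (without Fpr2f/f replicate 3) to 0.27 for Rps3a1. Of these 5, only Rps4x had groups that did not overlap over all epithelial cells, at 1857, 1648 and 1647 CPM against 2033, 2069 and 1881 CPM. Over all epithelial cells 3 of 81 members were lower in Fpr2VKO without overlap of the groups, against 7.21% of all genes tested, and 1 of 81 was higher, against 6.69%. Both counts lie below the share of all genes.

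Some members had the same sign in every class. Among the 79 members tested in all 8 classes, 24 had a negative log2 fold change in every class, against 8.48% of the 2971 genes tested in all 8, and 10 a positive one, against 6.63%. In 3 or more classes 5 members (Rpl35, Rpl36, Rpl37a, Rpl38 and Rps21) were lower without overlap, against 3.84% of these genes, and 0 were higher, against 2.93%. Because every class comes from the same 6 libraries, these counts are not 8 independent repeats. Fold change also followed gene length across members. Over the 80 members with at least 20 CPM, the log2 fold change in all epithelial cells correlated with coding length (r = 0.388) and with GC content of the transcript (r = -0.376), as descriptions across genes. The 40 members with a coding length at or below the median of 454.5 bases had a median log2 fold change of -0.01 and the 40 longer ones of 0.06.

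Members called by edgeR were few in every class, and those whose groups did not overlap lay above the share of all genes in some classes and below it in others. Over all epithelial cells edgeR called 0 of 81 members at an adjusted p below 0.05, against 0.0421% of all 16631 genes. At an unadjusted p below 0.05 there were 5 members, all lower in Fpr2VKO, against 8.97% of all genes, and DESeq2 called 0 members, against 0.739%. Each DESeq2 share is of the genes to which it gave an adjusted p-value, from 1534 in enterocyte-like to 20154 in enteroendocrine-like cells. In stem-like cells edgeR called 0 of 80 members (0.189% of all genes), DESeq2 called 1 (0.28% of all genes), and 9 had an unadjusted p below 0.05 (7.38% of all genes). TA-like cells gave 0 of 81 by edgeR (0.108%) and 0 by DESeq2 (0.18%), with 4 below an unadjusted 0.05 (7.07%). The 9 stem-like members were all lower in Fpr2VKO, as were the 4 TA-like ones.

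In enterocyte-like cells edgeR called 0 of 80 members (0.0682% of all genes), DESeq2 called 4 of 79 (1.37%), and 10 had an unadjusted p below 0.05 (5.46%), all lower in Fpr2VKO. There 14 of 80 members were lower without overlap of the groups (5% of all genes) and 0 were higher (5.26%). Goblet-like cells gave 1 of 80 by edgeR (0.0669%), 6 of 79 by DESeq2 (0.608%) and 12 below an unadjusted 0.05 (7.55%), with 12 members lower without overlap (6.17%) and 2 higher (6.12%). The DESeq2 calls in goblet-like cells were Rpl35, Rpl36, Rps29, Rpl38, Rpl41 and Rpl37a, and in enterocyte-like cells Rpl35, Rpl38, Rps29 and Rpl41. In Paneth-like cells edgeR called 1 of 80 (0.396%), DESeq2 called 0 of 79 (1.01%), and 7 had an unadjusted p below 0.05 (8.98%), with 6 of 80 lower without overlap (6.41%) and 0 higher (6.33%). Enteroendocrine-like cells gave 0 of 80 by edgeR (0.0109%), 0 by DESeq2 (0.00992%) and 1 below an unadjusted 0.05 (3.7%). Tuft-like cells gave 0 of 79 (0.0324%), 0 by DESeq2 (0.0126%) and 1 below an unadjusted 0.05 (4.63%). Unnamed cells gave 0 of 81 (0.00756%), 0 by DESeq2 (0.0749%) and 2 below an unadjusted 0.05 (6.84%), and here 1 of 81 members was lower without overlap (6.37%) and 6 were higher (5.55%). In stem-like cells 2 members were lower without overlap (5.24%) and 0 higher (6.77%), in TA-like cells 1 and 0 (5.59% and 6.22%), in enteroendocrine-like cells 0 and 1 (4.33% and 4.19%), and in tuft-like cells 2 and 0 (4.6% and 4.47%). No edgeR call of a member was higher in Fpr2VKO. With the replicate number as a block, edgeR called 6 members in goblet-like cells (0.42% of all genes), 4 in stem-like (0.898%), 3 each in Paneth-like (1.23%) and enterocyte-like (0.38%) and 2 in TA-like cells (1.5%), Rpl35 in each of them. It called 0 members over all epithelial cells (0.289%), in enteroendocrine-like (0.0547%), tuft-like (0.0324%) and unnamed cells (0.0303%). The block raised the number of all genes called in the 5 classes with member calls too, for example from 7 to 44 in goblet-like and from 13 to 180 in TA-like cells.

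The study had named 7 members in the cells it called immature, a type not among the classes here, among them Rps6 of the small subunit and, of the large one, Rpl35, Rpl36, Rpl15, Rpl11 and Rpl10. The study reported them as reduced in Fpr2VKO, using Seurat's FindMarkers with its own limits on p-value and fold change. The fits here use UMIs summed per library, other limits and other groups of cells, so the results are not like for like. Because these genes were chosen on the same samples, their direction is not independent evidence. Their median log2 fold change was -0.24 over all epithelial cells and between -0.39 and -0.22 in the 8 classes, and the main edgeR test called Rpl35 in goblet-like and Paneth-like cells and none of the others. Without a filter on low counts, edgeR also called Rpl36 in goblet-like (adjusted p = 0.00762) and Rpl15 in stem-like cells (0.0158). Without Fpr2f/f replicate 1 it also called Rpl36 in goblet-like (adjusted p = 0.00574) and Paneth-like cells (0.0301). With the replicate block, edgeR also called Rpl36 in goblet-like and Paneth-like cells, Rpl15 in stem-like, enterocyte-like and goblet-like cells and Rps6 in Paneth-like cells (adjusted p = 0.0370). Rps6, the substrate of S6 kinase, had 741, 856 and 613 CPM in Fpr2f/f and 657, 753 and 455 CPM in Fpr2VKO over all epithelial cells (log2 fold change -0.24 ± 0.186 SE, edgeR adjusted p = 0.728). Rpl10 had 1121, 1189 and 896 CPM against 963, 1129 and 713 CPM (-0.19 ± 0.175 SE, edgeR adjusted p = 0.769). For both genes replicate 3 was the lowest library of either group, the groups overlapped, and Fpr2VKO was the lower in 3 of 3 same-number pairs. Leaving out 1 library gave a log2 fold change of -0.40 to -0.06 for Rps6 and -0.35 to -0.02 for Rpl10, in both cases the weakest without Fpr2VKO replicate 3 and the strongest without Fpr2VKO replicate 2. Rpl11 had a positive value, 0.07 ± 0.123 SE (edgeR adjusted p = 0.883), and leaving out 1 library gave 0.03 to 0.12, the ends coming from the replicates 3 of Fpr2f/f and Fpr2VKO. An unnamed cluster of 1961 cells had Il31ra, Cdk8 and Peak1 among its leading genes, which the study lists as reduced in its immature cells. Whether these are the same cells was not tested. The ribosomal protein share of this cluster was 14.54%, 15.68% and 15.70% in Fpr2f/f and 15.86%, 16.27% and 14.99% in Fpr2VKO, with overlap.

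Genes that work with the ribosomal proteins are given by their counts and medians. With 0.0421% of all genes called over all epithelial cells, lists of this size would hold fewer than 1 call at the same rate. Of the 36 genes for ribosome biogenesis (rRNA processing, nucleolar assembly and export), 0 were called by edgeR over all epithelial cells or in any class, and their median log2 fold change was -0.05 for all epithelial cells and -0.10 in stem-like cells. Their summed share of UMIs was 0.557% to 0.602% in stem-like, 0.531% to 0.603% in TA-like and 0.194% to 0.213% in enterocyte-like cells. The 78 mitochondrial ribosomal protein genes had 0 calls and a median of 0.05 over all epithelial cells. Of the 18 other translation genes with TOP mRNAs, such as elongation factors, 17 were tested, with 0 calls and a median of 0.13, and the 19 genes of Myc, p53 and mTOR control 0 calls and a median of -0.01. The 8 snoRNA host genes (7 tested) had 0 calls and a median of -0.13. Fau, which encodes a ribosomal protein fused to a ubiquitin-like domain and lies outside the rule, had 287907 UMIs and, over all epithelial cells, changed by -0.06 on the log2 scale without a call. Rpl36al, also outside the rule, had 135273 UMIs.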

How the data were processed

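Per the labels and the study's methods, the authors processed reads of 6 MobiNova-100 libraries with MobiVision against mm10 and deposited UMI counts for each gene and barcode, before any choice of cells. Seurat 4.0.0 is named in the submitters' processing notes for the later steps, whose output is not used here. Barcodes were kept at 1000 or more UMIs, 500 or more genes and at most 20% mitochondrial UMIs, clustered (Leiden, libraries aligned on mutual nearest neighbours, ribosomal protein and mitochondrial genes left out) and named X-like from marker lists. A cluster needed at least 3 detected markers and a mean log2 fold of its markers of at least 0.5. It also needed at least 1 own marker among its 10 leading genes, a condition set after the clusters were seen. A cluster of 40 cells was left out as immune on Ptprc, outside this rule. Likely doublets were kept in the main result and removed in an alternative. UMIs were summed per library and class, and libraries with fewer than 20 cells of a class were left out of its fit.

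Fold changes come from edgeR 4.0.16 (quasi-likelihood, robust, TMM, filterByExpr; R 4.3.3), fitted on all genes with Benjamini-Hochberg adjustment over all genes tested, on the group alone. Per-library CPM in comparisons are TMM-normalised, and CPM between classes are of all UMIs. DESeq2 1.42.0 was an alternative. The edgeR step was tested on simulated data. Shares were compared by exact permutation of the 6 libraries (two-sided). Gene positions, coding lengths and transcripts are from GENCODE M21 (GRCm38, the same assembly as mm10). Members and lists were chosen with earlier results of these data known. Genes named were the 7 of the study, members called in a comparison (at most 10), the 5 highest and 5 lowest by fold change relative to the members' median among those of at least 20 CPM, by UMIs and by SD over classes, the paralogs and P stalk, called genes of the lists, and the 3 most and 3 least like the summed members. Rpl38, Rpl41, Rps21, Rps27, Rpl27, Rpl13a and those of the DESeq2 calls were named after their values were seen. Results of some genes that the rule names are not reported here.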

Additional observations from a re-analysis of the deposited data

Results flagged for a closer look

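Rplp1 went in opposite directions in 2 sets of cells. In goblet-like cells all 3 Fpr2VKO libraries lay below all 3 Fpr2f/f libraries, with a log2 fold change of -0.10, and in unnamed cells all 3 lay above, with a log2 fold change of 0.11. The levels were 2707, 2811 and 2790 CPM of Rplp1 against 2561, 2620 and 2575 CPM in goblet-like cells, and 2654, 2672 and 2357 CPM against 2697, 2855 and 2754 CPM in unnamed cells. The difference between the 2 was not tested, and neither passed the test over all genes (edgeR adjusted p for Rplp1 of 0.897 and 0.891). Rplp1 was not alone in this, since the members' median was -0.07 in goblet-like and 0.06 in unnamed cells. Its values lay between the members' quartiles, -0.18 and -0.0072 in goblet-like and -0.087 and 0.117 in unnamed cells. In goblet-like cells 12 of 80 members were lower without overlap (6.17% of all genes), and in unnamed cells 6 of 81 were higher (5.55%).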

How the results depend on the processing

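No test of a share could pass the threshold with 3 libraries against 3, and both the size and the sign of the difference depended on the setting. Leaving out libraries aside, large moves that kept their sign were at a mitochondrial limit of 10% over all epithelial cells (-3.08 percentage points), with ribosomal protein genes in the clustering in stem-like cells (-2.37, or -1.75 with Fpr2f/f replicate 1, which held 16 such cells and fell under the limit of 20), and with the median over barcodes in unnamed (1.36) and Paneth-like cells (-0.856). In 19 of 131 alternatives it turned. With the median over barcodes it was 0.989 percentage points over all epithelial cells and 0.723 in TA-like cells. The groups did not overlap with that median over all epithelial, unnamed and Paneth-like cells, nor at the 10% limit over all epithelial cells (exact permutation p = 0.1 in each, the smallest possible). At a mitochondrial limit of 10% it was 0.458 in stem-like cells, where Fpr2VKO replicate 3 fell under the limit of 20 cells (0.271 with it), and 0.00872 in Paneth-like cells, and at 40% 0.130 in TA-like and 0.0955 in Paneth-like cells. With ribosomal protein genes in the clustering it was 0.0829 in enterocyte-like and -0.452 in tuft-like cells, and from barcodes with at least 10000 UMIs 0.0576 in Paneth-like and -0.384 in unnamed cells. At that depth it was 0.358 in enteroendocrine-like cells without Fpr2f/f replicate 3, which held 16 cells, and -0.251 with it, the sign of the main value. With at least 2000 UMIs it was 0.459 in tuft-like cells without Fpr2VKO replicate 2, which held 18 cells, and -0.00537 with it. Leaving out 1 library gave -0.754 to 0.0236 points over all epithelial cells, -1.62 to 0.262 in stem-like, -0.934 to 0.558 in TA-like, -0.166 to 0.0119 in Paneth-like, -0.531 to 0.264 in enteroendocrine-like and -0.689 to 0.971 in tuft-like cells, while enterocyte-like (-1.18 to -0.230), goblet-like (-0.502 to -0.127) and unnamed cells (0.0622 to 0.780) kept their sign. The cause was not tested.

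Counts of called members moved as follows. Without a filter on low counts edgeR called 5 in goblet-like cells, 2 in stem-like cells, 0 in Paneth-like cells and 1 each in enterocyte-like cells, in unnamed cells and over all epithelial cells. DESeq2 called 6 in goblet-like cells, 4 in enterocyte-like cells, 1 in stem-like cells and 0 in Paneth-like cells. In Paneth-like cells 0 were called at mitochondrial limits of 10% and 40%, and 0 in Paneth-like and goblet-like cells from barcodes with at least 10000 UMIs, an alternative chosen after seeing the data. Leaving out 1 library gave 0 to 2 in Paneth-like and 0 to 5 in goblet-like cells, where the 5 came without Fpr2f/f replicate 1 and the 0 without Fpr2VKO replicate 3. With the replicate number as a block, 6 members were called in goblet-like cells, 4 in stem-like cells, 3 each in Paneth-like and enterocyte-like cells and 2 in TA-like cells, all lower in Fpr2VKO and Rpl35 in each, and 0 in the other comparisons. The same-number correlations of deviations over all genes tested were 0.111, 0.0896 and 0.201 in stem-like cells and -0.0186, 0.00174 and 0.394 over all epithelial cells, so over all genes tested not every pair passed 0.1. Among genes of at least 20 CPM all 3 passed 0.1 in stem-like cells (0.230, 0.151 and 0.374), in TA-like cells (0.183, 0.210 and 0.546) and over all epithelial cells, so the pairing is undecided. In stem-like cells every library correlated best with its own number, a hint from the data and not from the design. In Paneth-like cells this held for 3 of 3 numbers among genes of at least 20 CPM and for 2 of 3 over all genes tested. In enterocyte-like cells it held for 2 of 3 in either set of genes. In goblet-like cells, with the most member calls under the block, this held for 1 of 3 numbers. Correlations there were -0.0683, 0.0551 and 0.197 among genes of at least 20 CPM. It also held for 1 of 3 over all epithelial cells and in TA-like, enteroendocrine-like, tuft-like and unnamed cells.

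The log2 fold change of Rpl11 turned at a mitochondrial limit of 10% (-0.02) over all epithelial cells. Rpl35 over all epithelial cells was called without a filter on low counts (log2 fold change -0.64, edgeR adjusted p = 0.0176). No call, and no share difference under the limit of 20 cells, was computed at the 10% limit in enterocyte-like and tuft-like cells, or at 10000 UMIs in tuft-like cells. There fewer than 2 libraries of a group held 20 cells. With all libraries the share differed by 0.290 points in enterocyte-like and -0.923 in tuft-like cells at 10%. At 10000 UMIs it differed by -0.00327 in tuft-like cells. Each had the opposite sign of the main difference. Tuft-like cells had the fewest genes tested, 3089, with the fewest cells of a class, 324, and low UMI counts a cell.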
